A study of Mus musculus with 10 samples.

Results

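The osteogenic differentiation genes described here are 9 of the 32285 genes measured by single-cell RNA sequencing of the developing mouse lower jaw. They are *Runx2*, *Sp7*, *Alpl*, *Sparc*, *Ibsp*, *Spp1*, *Bglap*, *Phex* and *Dmp1*. These genes were chosen by symbol for their known place in bone formation, with earlier results of these data known. The tissue came from wild-type embryos of the NMRI mouse stock, with no transgene and no treatment. Whole mandibles were dissected at E11.5 (E, embryonic day), lower incisor buds were taken at E14.5 and again at E16.5, and each tissue was dissociated with collagenase P. The labels list 4, 4 and 2 samples for these stages, but the deposited matrix of each stage pools its samples. Each stage is therefore 1 sample, no difference between stages has a replicate check, and stage, dissected tissue and library cannot be told apart.

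Bone- and dentin-forming cells arise from mesenchyme. *Runx2* and then *Sp7* (osterix) are the transcription factors that commit a mesenchymal cell to the osteoblast fate, *Alpl* encodes the tissue-nonspecific alkaline phosphatase that frees phosphate for mineral, and *Sparc*, *Ibsp* and *Spp1* encode matrix proteins that bind collagen or mineral. *Bglap* (osteocalcin) marks the mature, matrix-mineralising osteoblast, whereas *Phex* and *Dmp1* are known from osteocytes and odontoblasts, where they take part in phosphate handling. In the tooth germ *Runx2* is also known as a gene of the dental mesenchyme, ahead of any mineral.

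Cells with at least 700 detected genes and at most 20% mitochondrial UMIs (unique molecular identifiers, one per captured transcript) were kept, which left 6573 of 8708 E11.5 barcodes, 6091 of 8192 E14.5 barcodes and 4511 of 5719 E16.5 barcodes. Between 9 and 11 barcodes recurred between any pair of stages. The median kept cell had 5664, 3471 and 6260 UMIs in that order of stages. Clusters whose mesenchymal markers passed held 6017 of the E11.5 cells, 4624 of the E14.5 cells and 2535 of the E16.5 cells, that is 91.5%, 75.9% and 56.2% of the cells. Epithelial clusters held 989 E14.5 cells and 1761 E16.5 cells, and no E11.5 cluster passed as epithelium, although a whole mandible holds epithelium. Smaller clusters carried endothelial, immune, erythroid, muscle, glial or mural markers. Levels are given as CPM, counts per 1e6, that is the UMIs of a gene per 1e6 UMIs summed across a group of cells, with exact 95% Poisson intervals in brackets. Shares of cells carry exact binomial intervals (Clopper-Pearson). All of these intervals cover counting error only.

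Some of these genes are neighbours. *Dmp1* (chr5:104202613-104214102), *Ibsp* (chr5:104299171-104311469) and *Spp1* (chr5:104435118-104441050) share the plus strand of mouse chromosome 5 in GRCm38 with *Dspp* and *Mepe*, which encode related acidic matrix proteins. *Bglap* (chr3:88383501-88384464, minus strand) lies beside its near-identical copies *Bglap2* (chr3:88377736-88378699) and *Bglap3* (chr3:88368616-88372743), so the division of reads among these 3 is uncertain. *Runx2* spans chr17:44495987-44814797 on the minus strand. These spans are those of the GENCODE annotation, whose gene starts differ from the RefSeq starts used for the promoter windows, so the windows of *Runx2* and *Ibsp* reach into the spans.

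The 250 bases before the RefSeq start (GRCm38.p6) are shown for the regulator *Runx2* and for the matrix genes *Ibsp*, *Spp1* and *Bglap*, on which the cluster and co-detection results turn, written 5′ to 3′ with each RUNX motif in capitals. The motif searched was TGTGGT on either strand, which reads ACCACA on the other. The windows are chr17:44814628-44814877 (minus strand) for *Runx2*, chr5:104299037-104299286 (plus) for *Ibsp*, chr5:104434861-104435110 (plus) for *Spp1* and chr3:88384467-88384716 (minus) for *Bglap*.
Runx2: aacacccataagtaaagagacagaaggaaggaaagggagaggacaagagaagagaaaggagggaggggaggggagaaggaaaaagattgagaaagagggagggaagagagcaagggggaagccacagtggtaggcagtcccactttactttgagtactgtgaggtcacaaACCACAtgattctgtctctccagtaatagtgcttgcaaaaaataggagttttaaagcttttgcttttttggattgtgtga
Ibsp: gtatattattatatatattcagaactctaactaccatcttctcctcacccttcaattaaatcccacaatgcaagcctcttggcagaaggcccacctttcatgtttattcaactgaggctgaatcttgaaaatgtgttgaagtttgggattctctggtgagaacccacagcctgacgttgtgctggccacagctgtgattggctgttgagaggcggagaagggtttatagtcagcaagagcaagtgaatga
Spp1: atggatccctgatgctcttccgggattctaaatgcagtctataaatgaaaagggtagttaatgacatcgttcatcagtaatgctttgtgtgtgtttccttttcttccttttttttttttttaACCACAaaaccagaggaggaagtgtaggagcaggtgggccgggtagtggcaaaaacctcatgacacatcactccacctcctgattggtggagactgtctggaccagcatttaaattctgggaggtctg
Bglap: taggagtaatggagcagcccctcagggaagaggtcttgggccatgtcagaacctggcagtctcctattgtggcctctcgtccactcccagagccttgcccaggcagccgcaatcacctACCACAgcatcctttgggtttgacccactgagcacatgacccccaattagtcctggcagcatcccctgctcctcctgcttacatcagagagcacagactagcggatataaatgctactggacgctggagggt
The motif lay 80 to 75 bases before the start of *Runx2*, 128 to 123 before *Spp1* and 132 to 127 before *Bglap*, and these letters were not in the *Ibsp* window. A promoter was matched for 8 of the 9 genes (all but *Sp7*), and 4 of the 8 held the motif in at least 1 window, the fourth being *Dmp1*. Counted by window, 4 of the 11 windows of these genes held it, beside 4614 of all 32851 promoter windows of this length (14.05%). A match describes letters and not a bound site.

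From E11.5 to E14.5, the levels of the regulators, the phosphatase and the early matrix genes in the mesenchyme went up together. All 6 of the genes with at least 50 UMIs in the 2 groups were at least 2-fold higher at E14.5 (*Runx2*, *Sp7*, *Alpl*, *Sparc*, *Ibsp* and *Spp1*), where 10.5% of the 12781 genes with that many UMIs were. Of these, *Sp7* (30 UMIs at E11.5), *Ibsp* (0) and *Spp1* (49) passed that limit only through their E14.5 UMIs. The count of 6 is therefore set in part by the limit. *Bglap*, *Phex* and *Dmp1* had too few UMIs to be compared. From E14.5 to E16.5 fewer of them differed. Of the same 6, only *Sp7* was at least 2-fold higher (background 7.48% of 12252 genes) and only *Spp1* at least 2-fold lower (background 2.21%). With 12 UMIs at E16.5, *Spp1* passed the limit through its E14.5 UMIs. The 2 comparisons share the E14.5 sample.

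*Runx2* stood at 11.45 CPM [10.5–12.5] in E11.5 mesenchyme. It reached 222 CPM [215–229] by E14.5, followed by 257 CPM [249–264] in the E16.5 sample. The first step was 19.4-fold [17.7–21.3] and the second 1.16-fold [1.11–1.21]. A *Runx2* UMI was found in 6.98%, 46.5% and 67.0% of mesenchymal cells. With cells thinned to 2000 UMIs, which left out the shallower 603 of 6017, 685 of 4624 and 43 of 2535 cells, the shares were 1.77%, 31.5% and 37.6%. Erythroid cells, which should lack the gene, served as a reference for free RNA. At the same thinned depth a *Runx2* UMI was found in 0% [0–3.0] of the E11.5 ones, 12.0% [7.13–18.5] of those from E14.5 and 11.6% [3.89–25.1] of those from E16.5. In CPM the erythroid cells stood at 87.5 [69.2–109] for *Runx2* at E14.5. At the thinned depth the mesenchymal share lay within the erythroid interval at E11.5 and above it at both later stages. With all UMIs the E11.5 erythroid cells stood at 1.01 CPM [0.026–5.65], from 1 UMI, below the mesenchyme. A *Runx2* UMI was then found in 0.72% [0.018–3.94] of them, against 6.98% [6.35–7.65] of mesenchymal cells. For the other genes the E14.5 erythroid shares at 2000 UMIs were 1.41% [0.17–5.0] for *Sp7* and for *Ibsp*, 5.63% [2.46–10.8] for *Alpl* and 28.2% [20.9–36.3] for *Sparc*. The mesenchymal shares beside them were 2.59%, 4.72%, 13.4% and 45.7%, so those of *Sp7* and *Ibsp* lay within the erythroid interval, which rests on 142 cells. The 19 erythroid *Ibsp* UMIs lay in 2 cells, 1 of which held 17. In CPM the erythroid *Ibsp* was 21.3 [12.8–33.3], beside 97.6 [93.1–102] in mesenchyme. At 2000 UMIs, 0% [0–2.95] of 123 E14.5 immune cells had *Ibsp* or *Sp7*. The mesenchymal share of *Ibsp* lies above that interval and the share of *Sp7* within it. In E14.5 epithelial cells the thinned shares were 0.24% [0.029–0.86] for *Sp7* and 0.60% [0.19–1.39] for *Ibsp*, below both mesenchymal shares. At E16.5 and 2000 UMIs, 0 of 43 erythroid cells had either gene, which puts the upper end of their interval at 8.22%. With all UMIs, *Ibsp* was found in 3 and *Sp7* in 2 of these 43 cells.

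*Sp7*, the factor that acts after *Runx2*, was higher again at the last stage. It stood at 0.69 CPM [0.46–0.98], 12.8 CPM [11.2–14.52] and 26.6 CPM [24.3–29.1] in stage order. The later step was 2.09-fold [1.78–2.45], close to the 2-fold limit, and its interval reaches below that limit. With 10 CPM added to both levels, the step was 0.69 on the log2 scale instead of 1.06, and the call was lost.

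*Alpl* was 59.6-fold higher [45.0–80.5] at E14.5 than at E11.5 and nearly level thereafter. Its values were 1.17 CPM [0.87–1.54], 69.8 CPM [66.0–73.8] and 71.3 CPM [67.6–75.3], and the last pair overlap within counting error. *Sparc*, which encodes the collagen-binding glycoprotein osteonectin, was already present at E11.5 at 54.4 CPM [52.3–56.7]. It reached 345 CPM [336–354] by E14.5 and then 481 CPM [471–491].

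*Ibsp*, which encodes bone sialoprotein and is known to appear as matrix begins to mineralise, had no UMI in the 6017 E11.5 mesenchymal cells, which allows a share of cells with a UMI of up to 0.0499% by the 3-count limit. At E14.5 it stood at 97.6 CPM [93.1–102], at least 1418-fold above the 3-count limit of E11.5, and at E16.5 at 91.1 CPM [86.8–95.6]. These levels rest on few cells. *Ibsp* was detected in 6.19% and 8.44% of mesenchymal cells, the top 1% of cells held 77.1% and 61.8% of its UMIs, and a single cell held up to 325 UMIs in the earlier and 175 in the later of these stages. The brackets on *Ibsp* therefore understate its error.

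*Spp1* (osteopontin) had a peak at E14.5. *Postn* and *Bgn* of the matrix list were also highest at E14.5, at 354 and 206 CPM. Their E16.5 levels, 213 and 146 CPM, were not 2-fold lower. *Spp1* went from 1.12 CPM [0.83–1.49] in E11.5 mesenchyme to 29.0 CPM [26.6–31.6] in E14.5 mesenchyme, and then to 0.64 CPM [0.33–1.12] by E16.5, where 12 UMIs were left in 8 of 2535 cells. The later level was 0.022 times the earlier [0.011–0.039]. The E14.5 erythroid cells stood at 16.8 CPM [9.42–27.8]. At 2000 UMIs a *Spp1* UMI was found in 2.11% [0.44–6.05] of them and in 3.07% of the mesenchymal cells, a share that lies within the erythroid interval. In E14.5 epithelial cells the share was lower, at 0.12% [0.0030–0.66].

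The late genes were near the limit of detection. *Bglap* had 19, 5 and 43 UMIs in the mesenchyme of the 3 stages, or 0.44 CPM [0.26–0.68], 0.28 CPM [0.09–0.65] and 2.30 CPM [1.67–3.10]. Over E11.5, the E16.5 level was 5.28-fold higher [3.01–9.60], a call that was lost with 10 CPM added (0.24 on the log2 scale instead of 2.40). In that comparison of the outer stages, 6 of the 7 genes with enough UMIs were at least 2-fold higher (background 16.8% of 13028 genes), and none was lower (background 9.83%). *Sp7* and *Ibsp* had enough UMIs only through E16.5. *Spp1* at 0.57-fold was not called. *Phex* had 25, 8 and 7 UMIs and *Dmp1* 0, 7 and 1, so no change in these 2 genes was detectable at this depth.

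**Figure D1:**
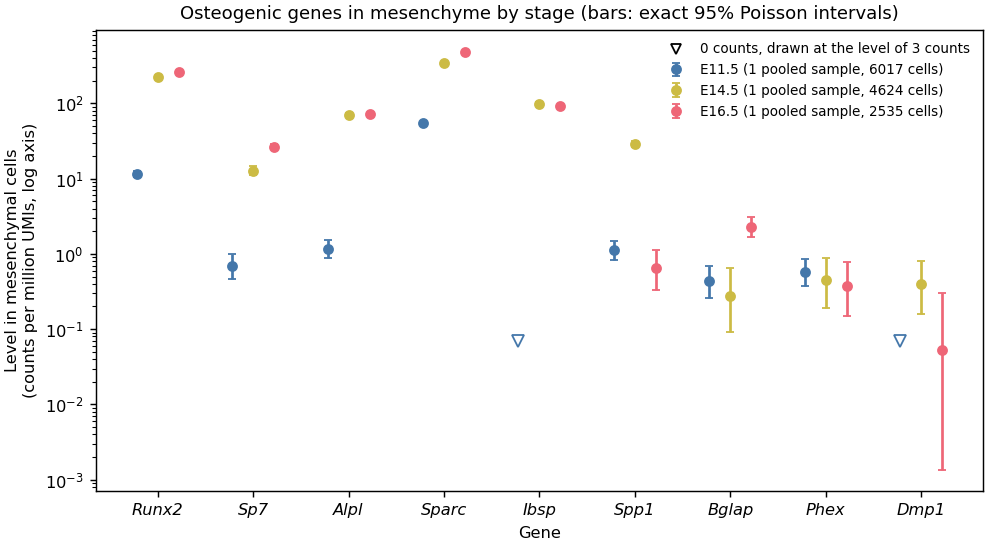
Level of each osteogenic gene in the mesenchymal cells of the 3 stages, in CPM on a log axis, 1 pooled sample per stage, with bars for the exact 95% Poisson interval (counting error only). The 6 genes *Runx2*, *Sp7*, *Alpl*, *Sparc*, *Ibsp* and *Spp1* step up between E11.5 and E14.5, *Spp1* stands at 29.0 and then 0.64 CPM, and *Bglap*, *Phex* and *Dmp1* stay under 3 CPM.

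Most UMIs of the regulators and of *Ibsp* lay in the mesenchyme, and 3 other genes also stood high in another lineage. At E14.5 the mesenchyme held 90.8% of *Runx2*, 95.4% of *Sp7*, 97.9% of *Ibsp* and 89.2% of *Spp1* UMIs of all kept cells. Over all genes it held 17873125 of the 27765839 UMIs of that stage, in 75.9% of the cells. Against the epithelium of that stage, 5 of the 6 genes with at least 50 UMIs were at least 2-fold higher in mesenchyme (background 11.7% of 11559 genes) and none was lower (background 9.37%), from 4.49-fold for *Alpl* to 48.9-fold for *Ibsp*. *Sparc* was 1.76-fold higher and was not called. With 5, 14 and 8 epithelial UMIs, *Sp7*, *Ibsp* and *Spp1* passed the limit only through their mesenchymal UMIs. At E16.5, 3 of 5 were at least 2-fold higher (background 11.8% of 12695 genes) and none was lower (background 10.1%), with *Runx2* 12.0-fold, *Sp7* 7.0-fold and *Ibsp* 7.88-fold.

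The first was *Sparc*, whose highest levels were outside the mesenchyme. Endothelial clusters stood at 919 CPM [861–980], 1902 CPM [1808–1999] and 2469 CPM [2378–2562] in stage order, each above the mesenchyme of its stage. E14.5 glial cells and E16.5 mural cells stood at 1118 and 1111 CPM. *Sparc* is known to be expressed widely, in vessels among other tissues.

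The second was *Alpl* in the E16.5 epithelium. Its level there was 68.4 CPM [64.7–72.2]. The mesenchymal level was 1.04 times this [0.97–1.13], a ratio whose interval holds equality. At E14.5 the epithelium had stood at 15.5 CPM [12.8–18.7]. Of the 1312 epithelial *Alpl* UMIs at E16.5, 1055 came from 1 cluster of 537 cells led by *Maf*, *Alpl*, *Sparcl1*, *Ppargc1a* and *Angpt1*. That cluster stood at 218 CPM [205–231], with a UMI in 42.3% of its cells, and the other epithelial clusters at 7.7 to 21.2 CPM. It also held *Ibsp* at 28.3 CPM, in 41 cells.

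The third was *Spp1* in immune cells, whose macrophages are a known source of osteopontin. They stood at 11.2 CPM [5.36–20.6], 40.5 CPM [28.8–55.4] and 17.4 CPM [5.66–40.7] in stage order. The E14.5 interval overlaps that of the mesenchyme only at its lower end, and the E16.5 one, which rests on 5 UMIs, lies wholly above it.

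**Figure D2:**
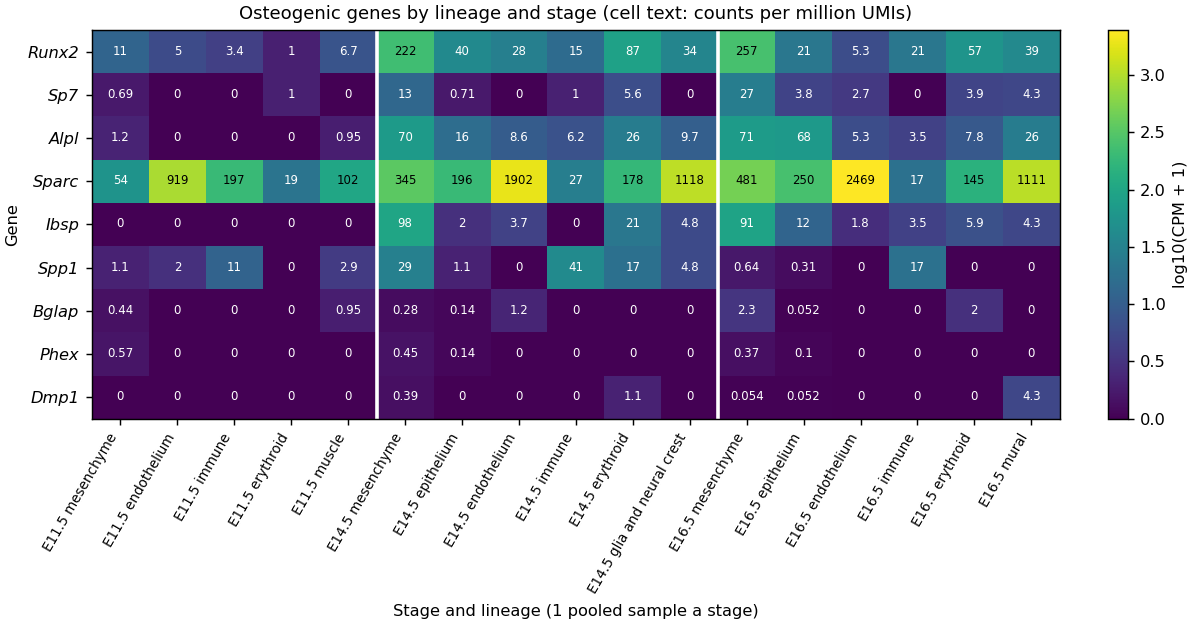
Level of the osteogenic genes by lineage and stage in CPM, where 1 pooled sample stands behind each stage. *Sparc* is highest in endothelium at every stage (919, 1902 and 2469 CPM), and *Alpl* at E16.5 is alike in epithelium (68.4 CPM) and mesenchyme (71.3 CPM).

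Within the mesenchyme the genes did not peak in the same clusters. Clusters were formed without the 9 genes, so their levels entered no cluster directly, and the clusters of a stage share a library. At E11.5 *Runx2* ranged from 5.6 to 18.7 CPM, highest in the cluster led by *Pax3* and *Msx1*, and 1 of the other 4 clusters was led by the embryonic globins *Hbb-y* and *Hba-x*.

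At E14.5 a cluster of 1462 cells led by *Ibsp*, *Igfbp5*, *Sfrp4*, *Stmn2* and *Alpl* held the most *Runx2* (400 CPM [381–419]), the most *Sp7* (28.4 CPM [23.5–34.1]), the most *Alpl* (191 CPM [178–204]) and the most *Ibsp* (348 CPM [331–367]). The top 1% of these 1462 cells held 72.7% of their *Ibsp* UMIs. A shallow cluster of 99 cells overlapped the cluster in *Runx2* (383 CPM [299–484]). The *Spp1* of the *Igfbp5* cluster was 4.82 CPM [2.94–7.45]. The cluster of 1119 cells led by *Crym*, *Dlx2*, *Egr3* and *Fgf3* was the reverse. It held *Spp1* at 54.8 CPM [49.3–60.8], in 16.53% of its cells, with *Alpl* at 6.29 CPM [4.52–8.54] and *Ibsp* at 3.99 CPM [2.61–5.85]. Its *Runx2* was 160 CPM [150–170]. The cluster led by *Osr1* and *Ebf2* combined high *Sparc* (918 CPM [869–971]) and *Alpl* (92.9 CPM [77.5–110]) with the lowest *Runx2* of the stage (65.3 CPM [52.5–80.3]). At equal depth its share of cells with *Runx2*, 9.56% [6.82–12.9], could not be told from the erythroid level of 12.0%. The immune and epithelial shares were lower, at 3.25% [0.89–8.12] and 5.38% [3.95–7.14], with intervals that overlap that of the cluster.

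At E16.5 the peaks lay in different clusters. *Alpl* was highest, at 218 CPM [201–236], among 404 cells led by *Pdzrn4* and *Sfrp4*, where *Sparc* stood at 1053 CPM [1015–1092] and all 7 *Phex* UMIs fell. *Ibsp* was highest, at 372 CPM [346–399], among 354 cells led by *Bmp3*, *Dkk2* and *Igf1*, in 28.5% of cells. *Runx2* was high in both, at 417 CPM [393–442] and 455 CPM [426–486], and their intervals overlap. *Sp7* was highest instead in a cluster of 569 cells led by *Smpd3* and *Itga4*, at 38.3 CPM [32.7–44.6], where *Runx2* was the lowest of the stage (124 CPM [114–135]). That cluster also held 34 of the 43 *Bglap* UMIs. Its *Sp7* interval overlaps that of the cluster led by *Nusap1* and *Hist1h2ap* (29.1 CPM [24.7–34.0]).

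**Figure D3:**
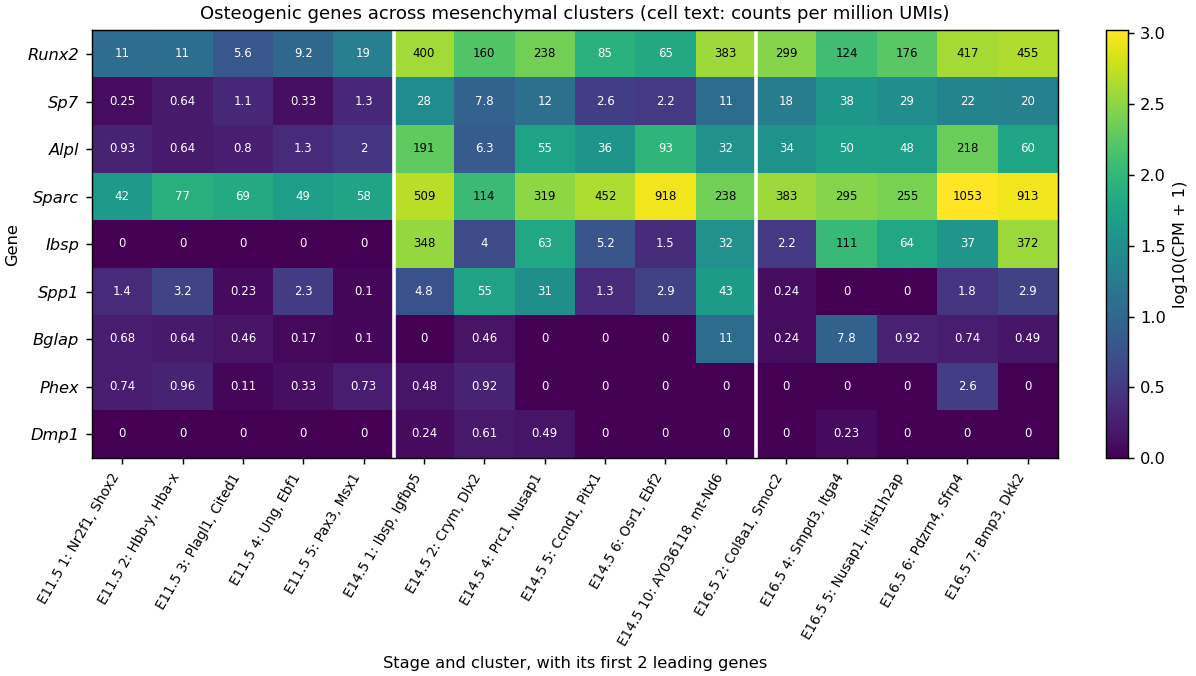
Level of the osteogenic genes in each mesenchymal cluster, in CPM, by stage. At E14.5 *Runx2*, *Sp7*, *Alpl* and *Ibsp* share their highest cluster while *Spp1* peaks in another (54.8 CPM), and at E16.5 *Alpl*, *Ibsp* and *Sp7* peak in 3 different clusters. The E16.5 *Sp7* peak overlaps the cluster led by *Nusap1* within counting error. At the finer clustering, the cluster with the highest *Sp7* was nearly level in *Ibsp* with the *Bmp3* cluster.

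At a finer clustering those *Bglap* UMIs gathered in 110 cells led by *Ifitm5*, *Smpd3* and *Itga4*. *Ifitm5* encodes a membrane protein of mineralising osteoblasts, and *Smpd3* a sphingomyelinase needed for bone and tooth mineral. These cells held *Bglap* at 26.9 CPM, from 34 UMIs in 18 cells, and *Bglap2* at 24.5 CPM, from 31 UMIs. Their *Sp7* was the highest of the E16.5 mesenchymal clusters (81.4 CPM) and their *Runx2* the lowest (60.1 CPM). That *Runx2* level lies within the interval of the E16.5 erythroid cells, 56.7 CPM [37.9–81.4], and could not be told from it. The interval of the 24 mural cells, 38.9 CPM [17.8–73.9], holds it too. It lies above the intervals of the E16.5 epithelium, 21.4 CPM [19.4–23.6], and immune cells, 20.9 CPM [7.67–45.5]. The endothelium was lower still, at 5.30 CPM [1.95–11.54]. Which of these lineages gives the level of free RNA was not tested. In the 110 cells *Ibsp* was 369 CPM, from 467 UMIs in 16 cells (14.55%), of which 1 cell held 175. The finer cluster led by *Bmp3* and *Dkk2*, of 355 cells, held *Ibsp* at 370 CPM, in 100 cells (28.2%) with up to 71 UMIs in a cell. Its *Runx2* was 458 CPM and its *Sp7* 20 CPM, with 1 *Bglap* UMI and none of *Bglap2* or *Ifitm5*. A cluster with similar leading genes was already there at E14.5 at the finer clustering, with 268 cells led by *Bmp3*, *Cxcl14*, *Igf1* and *Dkk2*. *Ibsp* was found in 23.5% of its cells, with up to 12 UMIs in a cell. In the finer E14.5 cluster led by *Igfbp5* and *Sfrp4* it was found in 9.73% of 1141 cells, with up to 325 UMIs.

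Co-detection asked how often these transcripts met in 1 cell, and was read at 2000 UMIs per cell. At E11.5, 87.1% of mesenchymal cells had a UMI of none of the 9 genes. The later stages had 32.3% and then 27.9% such cells, and cells with UMIs of 3 of the genes made up 5.56% and 6.42%.

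At E14.5 *Ibsp* was found together with the earlier genes. *Runx2* was detected in 50% [42.6–57.4] of the 186 cells with *Ibsp* and in 30.6% [29.1–32.1] of those without. *Sp7* was detected in 6.99% [3.77–11.7] against 2.37% [1.91–2.91], *Alpl* in 24.7% [18.7–31.6] against 12.8% [11.7–13.9], and *Sparc* in 61.3% [53.9–68.3] against 44.9% [43.3–46.5]. None of these interval pairs overlap. The *Sp7* ratio of 2.95 was not stable, at 1.52 in cells with 200 genes or more and no mitochondrial limit and at 0 where 2 UMIs counted as detected. *Runx2* was also more frequent with *Alpl*, at 47.0% [42.6–51.3] against 29.1% [27.6–30.7].

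*Spp1* and *Alpl* were almost apart. Of the 526 E14.5 cells with *Alpl*, 1 had *Spp1* (0.19% [0.0048–1.06]), against 3.52% [2.92–4.19] of cells without *Alpl*. Independence of the 2 genes would have put 16.2 cells in that overlap. With all UMIs 17 of 889 cells had both, 1.91% against 6.75%. *Runx2* was in 26.4% [18.8–35.2] of *Spp1* cells and in 31.7% [30.2–33.2] of the others, which overlap.

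At E16.5 *Runx2* and *Sparc* were again more frequent in *Ibsp* cells, and *Alpl* was not. *Runx2* was in 49.3% [40.5–58.0] of 134 *Ibsp* cells against 36.9% [35.0–38.9], and *Sparc* in 73.9% [65.6–81.1] against 50.8% [48.7–52.8]. *Sp7* was in 8.21% [4.17–14.2] against 3.65% [2.93–4.48], whose intervals overlap. *Alpl* was in 8.96% [4.71–15.1] against 11.7% [10.4–13.1], a ratio of 0.77 that became 1.29 with 200 genes or more and no mitochondrial limit. *Runx2* was in 37.5% [31.9–43.4] of *Alpl* cells and 37.6% [35.6–39.7] of the others. The cells are not replicates, so these intervals describe 1 sample each.

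The design also allows the question whether cells with the later gene carry the earlier ones. Of *Ibsp* cells, 36.6% in the E14.5 sample and 41.8% in the E16.5 sample had none of *Runx2*, *Sp7* and *Alpl* at 2000 UMIs, against 61.6% and 53.6% of the cells without *Ibsp*. With all UMIs those shares of *Ibsp* cells were 22.4% and 7.94%, against 46.0% and 24.3% of the cells without *Ibsp*.

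**Figure D4:**
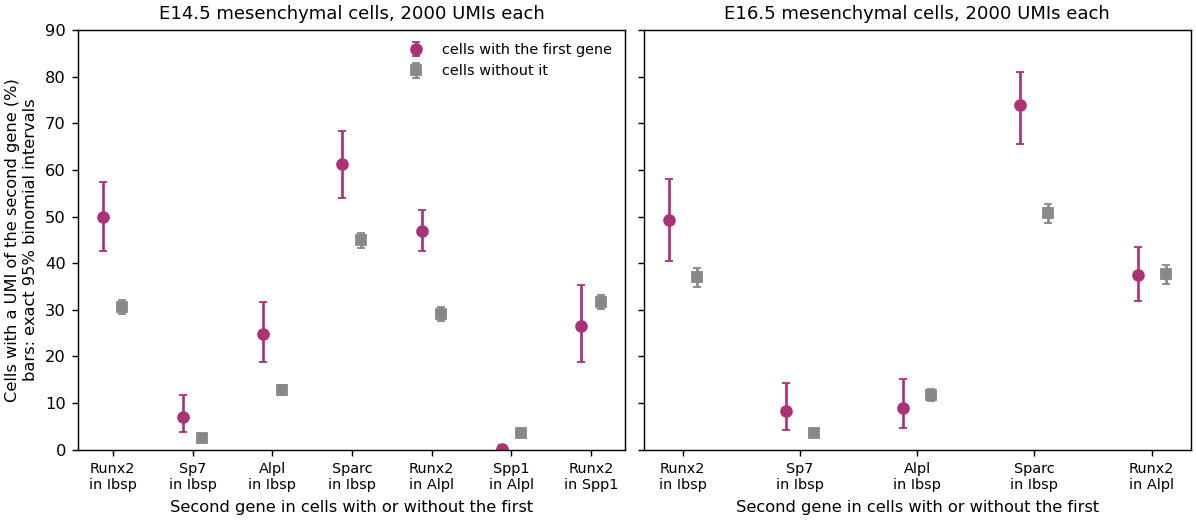
Percent of mesenchymal cells with a second gene among cells with and without the first, at 2000 UMIs per cell, with exact 95% binomial intervals, in 1 panel per stage. *Runx2* is more frequent in *Ibsp* cells at both stages (50% against 30.6%, then 49.3% against 36.9%), and *Alpl* is at E14.5 (24.7% against 12.8%), with overlapping intervals at E16.5.

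The *Ibsp*-rich cells, set as those with at least 10 *Ibsp* UMIs, numbered 23 in the E14.5 sample and 40 in the E16.5 sample. Along bins of *Ibsp* at E14.5 (0, 1 to 2, 3 to 9, and at least 10 UMIs), *Runx2* stood at 213, 338, 356 and 427 CPM and *Alpl* at 63.9, 135, 126 and 289 CPM. *Sp7* stood at 11.4, 24.1, 22.2 and 92.0 CPM. *Ifitm5* went from 0.60 CPM in cells without *Ibsp* to 316 CPM in the richest, and *Smpd3* from 21.0 to 966 CPM. *Dlx5*, a homeobox gene upstream of *Runx2*, went the other way, from 50.5 CPM to 13.1 CPM, which rests on 2 UMIs.

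At E16.5 *Runx2* and *Alpl* were highest in the bin of 3 to 9 UMIs. *Runx2* stood at 240, 360, 497 and 401 CPM over the bins and *Alpl* at 66.7, 104, 163 and 71.1 CPM. For *Runx2* the intervals of the last 2 bins, [440–560] and [338–473], overlap. For *Alpl* they are [131–200] and [46.0–105] and do not, but these UMIs lay in 22 of 69 and 9 of 40 cells. The shares of cells with *Alpl*, 31.9% [21.2–44.2] and 22.5% [10.8–38.5], overlap. *Bglap* stood at 1.07 CPM in cells without *Ibsp* and 48.4 CPM in the richest, *Bglap2* at 1.18 and 51.2 CPM, and *Ifitm5* at 10.1 and 185 CPM. *Dlx5* stood at 153 and 28.5 CPM. *Smpd3* did not go up steadily, at 360, 507, 71.3 and 791 CPM over the 4 bins. A *Smpd3* UMI was found in 19.8% of the cells without *Ibsp* and in 20% of the richest. A bin is cut from a range of values and is not a cell type.

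The 40 *Ibsp*-rich cells of E16.5 lay in several clusters. Of these, 21 lay in the finer cluster led by *Bmp3* and *Dkk2*, 11 in the cycling cluster, 7 in the one led by *Ifitm5* and *Smpd3*, and 1 elsewhere. The median cell had 6045 UMIs among the 21, 11501 among the 11 and 12108 among the 7, so the counts of cells below are not at equal depth. In CPM *Runx2* stood at 550 [430–694] in the 21 cells and at 136 [72.2–232] in the 7. In the 21 cells, *Runx2* was found in 20, *Sp7* in 2, *Alpl* in 2, *Smpd3* in 1, and *Bglap*, *Bglap2* and *Ifitm5* in 0. In the 7 cells, *Runx2* was found in 6, *Sp7* in 5, *Alpl* in 6, *Smpd3* in 7, *Ifitm5* in 6, *Bglap* in 5 and *Bglap2* in 4. *Ibsp* itself stood at 4016 CPM [3678–4377] in the former and 4738 CPM [4312–5194] in the latter. The 11 cycling cells had *Runx2* in 11 and *Sp7* in 2, with none of *Alpl*, *Bglap*, *Ifitm5* or *Smpd3*. *Bglap*, *Bglap2* and *Ifitm5* were thus found beside *Ibsp* in the small *Ifitm5* cluster and in 0 cells of the 2 larger groups. That cluster is named by its *Ifitm5* and *Smpd3* and was taken up for its *Bglap* UMIs. The contrast in these genes therefore follows from the choice of cluster and is no separate result. At E14.5, 14 of the 23 rich cells lay in the finer cluster led by *Igfbp5* and *Sfrp4*. Another 5 lay in a cycling cluster and 4 in the one led by *Bmp3* and *Cxcl14*. Among the 14 cells, *Runx2* was found in 13, *Alpl* in 12, *Smpd3* in 12, *Ifitm5* in 9, *Sp7* in 6 and *Bglap* in 0.

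**Figure D5:**
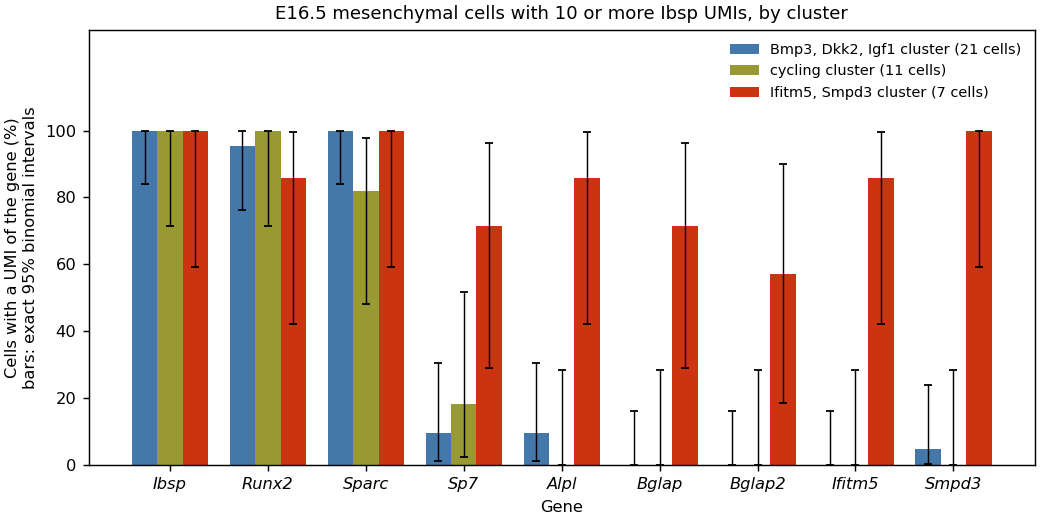
Percent of E16.5 *Ibsp*-rich mesenchymal cells (at least 10 *Ibsp* UMIs) with a UMI of each gene, as bars by finer cluster, with exact 95% binomial intervals. *Runx2* is found in 20 of 21 cells of the *Bmp3* and *Dkk2* cluster and 6 of 7 of the *Ifitm5* and *Smpd3* cluster, whereas *Bglap* and *Ifitm5* are found in the latter and in 0 cells of the other 2 clusters drawn. Depth is not equal, with a median of 6045 UMIs in the 21 cells and 12108 in the 7, where *Runx2* stands at 550 and 136 CPM. The *Ifitm5* and *Smpd3* cluster is named by these genes and was chosen for its *Bglap*.

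Other genes of the pathway were counted from lists. Of 12 osteogenic regulators (transcription factors and receptors), 11 had enough UMIs from E11.5 to E14.5, and 2 were at least 2-fold higher and 5 lower (background 10.5% and 11.3%), with a median log2 fold change of −0.74 beside −0.20 over all genes. *Mef2c* stood highest at 8.48-fold, while *Twist2* (0.24-fold), *Dlx6* (0.26-fold) and *Pth1r* (0.43-fold) stood lowest. From E14.5 to E16.5, 4 of 12 were higher and 0 lower (background 7.48% and 2.21%), led by *Msx2* at 5.65-fold, *Dlx3* at 4.64-fold and *Twist2* at 4.12-fold.

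The matrix list held 11 genes. Of these, 7 had enough UMIs and 6 of these were at least 2-fold higher at E14.5 than at E11.5, with a median log2 fold change of 2.59, beside the same background of 10.5% and −0.20. *Postn*, a matrix protein of periosteum and periodontal tissue, stood at 15.97-fold and *Col1a1*, the main collagen of bone and dentin, at 13.1-fold. From E14.5 to E16.5, 2 of 7 were higher and 0 lower (background 7.48% and 2.21%). These were *Omd* at 11.8-fold and *Ifitm5* at 4.18-fold, and *Postn* stood at 0.60-fold. Of 7 genes of mineral and phosphate handling, 6 had enough UMIs. At E14.5, 4 were higher and 1 lower (background 10.5% and 11.3%), with a median log2 fold change of 3.10 beside −0.20. *Enpp1*, which makes the mineral inhibitor pyrophosphate, stood at 1104-fold over a single E11.5 UMI [197–43715], and *Smpd3* at 73.4-fold. From E14.5 to E16.5 *Smpd3* stood a further 11.47-fold higher and *Enpp1* at 0.45-fold.

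Among 11094 genes ranked by the correlation of their log2 levels over the 16 mesenchymal clusters, those most like *Runx2* were *Col6a3* (Pearson's r = 0.96), *Adgrl3* and *Tgfb1i1*. Those most like *Alpl* were *Cd44* (r = 0.97), *Bicc1* and *Epdr1*, and those most like *Sp7* were *Hapln1* (r = 0.92), *Tmem65* and *Serpinf1*. *Ibsp* was most like *Htra3* (r = 0.88) and *Nupr1*, followed by *Sp7* (r = 0.82). The clusters share 3 libraries, and the gap between E11.5 and the later stages enters every one of these values.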

How the data were processed

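Single-cell RNA was measured with 10x 3′ v3 chemistry in wild-type mouse embryos. The authors deposited UMI counts per gene and barcode, made with Cell Ranger 4.0.0 on mm10, as 1 matrix per stage. Barcodes in a matrix could not be assigned to its labelled samples, so each stage was 1 sample and no test was run.

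A cell was kept with 700 or more detected genes and 20% or less of its UMIs mitochondrial (864 to 123785 UMIs per cell over the 3 stages). They were clustered per stage with Seurat 5.3.0 and sctransform 0.4.2 (2000 variable genes without the 9 genes and the 51 genes of the pathway lists, 20 components, Leiden 0.4). Clusters were named from fixed markers. A class needed a marker score of at least 2 and at least 3 detected markers, mesenchyme needed at least 5 detected markers, and a cluster was divided where resolution 0.8 gave another class. This rule was set after the clusters were seen. *Col9a1*, a cartilage marker, was among the 10 top genes over the cells of other classes in 4 of 5 E11.5 mesenchymal clusters. Doublets were not removed, since Scrublet's own threshold called 0 cells, and an alternative left out the top 5% of scores.

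UMI counts were summed per group. A gene was called at a 2-fold ratio with at least 50 counts in the 2 groups, a group at 0 was set to 3 counts, and intervals are 95%. Thinning drew 2000 UMIs per cell. The 9 genes and the lists (osteogenic regulators, matrix, mineral handling, osteoclast, chondrocyte, ameloblast) were chosen with earlier results of these data known. From each list the up to 3 highest and 3 lowest ratios could be named, with the 5 genes most like *Runx2*, *Sp7*, *Alpl* and *Ibsp* (over genes with at least 200 counts, log2 of CPM plus 10) and the 5 leading genes of each cluster. One gene that this rule allows is not reported here. *Bglap2*, *Ifitm5*, *Smpd3* and *Dlx5* beside *Ibsp*, and the limit of 10 *Ibsp* UMIs, were chosen after their values were seen. The interval and ratio code was tested on simulated data. Promoters came from RefSeq.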

Additional observations from a re-analysis of the deposited data

Results flagged for a closer look

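Barcodes that failed the cell filter (2135 from E11.5, 2101 from E14.5 and 1208 from E16.5) are outside every comparison above, and some held more UMIs of an osteogenic gene than a count of 0 allows. At E11.5 they held 32 UMIs of *Runx2*, 6 of *Spp1* and 138 of *Sparc*. At E14.5 they held 179 of *Runx2*, 11 of *Sp7*, 59 of *Alpl*, 80 of *Ibsp*, 10 of *Spp1* and 388 of *Sparc*. At E16.5 they held 28 of *Runx2*, 6 of *Sp7*, 27 of *Alpl* and 202 of *Sparc*.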

How the results depend on the processing

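No 2-fold call changed direction under the alternatives run (other cell filters, clusterings, doublet removal, thinning to 1000 UMIs, 10 CPM added, the mean over cells, all genes with a count, a limit of 2 UMIs, and, chosen after seeing the data, leaving out the low-depth mesenchymal clusters). Of the smaller differences, the E16.5 over E14.5 log2 fold changed sign by the mean over cells for *Alpl* (0.03 to −0.33) and *Ibsp* (−0.10 to 0.23). Of 300 log2 folds 258 stayed within counting error and 42 moved. The number of genes at 10 CPM or more in E11.5 mesenchyme was 2, and 1 by the mean over cells. The number at least 2-fold higher at E16.5 than at E14.5 was 1, and 0 by the mean over cells, 0 with 10 CPM added and 2 with all genes with a count, which also took the number lower from 1 to 2 and the number higher in E16.5 mesenchyme than epithelium from 3 to 6. The share of cells with *Runx2*, with over without *Ibsp*, was 1.63 at E14.5. It was 1.39 with 200 genes and no mitochondrial limit and 2.97 with 2 UMIs. At E16.5 it was 1.33, and 1.62 without the top 5% of doublet scores, 1.71 at 1000 UMIs and 2.93 with 2 UMIs. For *Spp1* with over without *Alpl* at E14.5, 0.054 became 0 at 1000 UMIs and 0 with 2 UMIs. The cause of these shifts was not tested. No paired analysis was possible because the replicates of a stage are pooled, and leaving out single replicates was not run for the same reason.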

Other observations

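*Ambn*, which encodes the enamel matrix protein ameloblastin, was higher in mesenchyme than in epithelium at E16.5. It had 0 UMIs in E11.5 mesenchyme, then 8.34 CPM [7.05–9.79] and 47.2 CPM [44.2–50.5] in the later stages, beside 0.43 CPM [0.09–1.25] and 14.54 CPM [12.9–16.4] in the epithelium of these 2. A UMI was found in 21.3% of E16.5 mesenchymal cells and in 6.98% [1.46–19.1] of the erythroid cells of that stage. *Ambn* was the 1 gene of 5 on the ameloblast list with at least 50 mesenchymal UMIs. The list as a whole was not higher in mesenchyme. Between E16.5 mesenchyme and epithelium, 3 of its genes had at least 50 UMIs, 1 higher and 1 lower (background 11.8% and 10.1%). Their median log2 fold change was −0.89. *Ambn* was also among the leading genes of a finer E16.5 epithelial cluster of 353 cells.

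Genes of other skeletal cells were counted in the mesenchyme as well. On the osteoclast list, 4 of 8 genes had enough UMIs, of which 2 were at least 2-fold higher and 1 lower at E14.5 than at E11.5 (background 10.5% and 11.3% of 12781 genes). *Mmp9*, a matrix protease, stood at 568-fold [194–2761] over 3 UMIs at E11.5, and *Ctsk*, the collagen-degrading cathepsin K, at 5.81-fold [4.985–6.79]. From E14.5 to E16.5, 1 was higher (*Acp5*, 3.54-fold) and 1 lower (*Mmp9*, 0.41-fold), where the background was 7.48% and 2.21%. Other lineages held these transcripts too. *Mmp9* at E14.5 stood at 39.1 CPM in mesenchyme, 20.2 in erythroid and 332 in immune cells, *Ctsk* at 31.6, 16.8 and 1298 CPM, and *Acp5* at E16.5 at 8.52, 13.7 and 1934 CPM in that order. The part of free RNA or immune cells in the mesenchymal values was not tested. On the chondrocyte list, 4 of 8 had enough UMIs, and 3 were lower at E14.5 (background 11.3%), namely *Col9a1* (0.027-fold), *Col2a1* (0.051-fold) and *Sox9* (0.25-fold), while *Hapln1* stood at 9.79-fold. From E14.5 to E16.5, 2 were higher and 1 lower, with *Hapln1* at 2.90-fold, *Sox9* at 2.05-fold and *Col2a1* at 0.14-fold. The E11.5 tissue was the whole mandible and the later tissue the incisor bud, so tissue and stage cannot be told apart here.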
